A study of Homo sapiens with 12 samples.

Results

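The genes that import cystine and build, recycle and spend glutathione were followed across the 12 RNA-seq libraries of the study. The 8 genes are SLC7A11, GCLC, GCLM, GSS, GSR, GPX1, GPX4 and GGCT, chosen by symbol from the 40295 rows of the gene count table, and each symbol stands for 1 row. TOV-112D is an ovarian carcinoma cell line whose p53 carries R175H, a hotspot mutation that destabilizes the protein. It was treated for 3 h with DMSO (the solvent, 2 libraries), with UCI-1001 (2 libraries, 10 µM in the study's text), a pyrimidine trione selected as an activator of mutant p53, or with its analog UCI-1014 (2 libraries, dose not given in the sources used here). Saos-2, an osteosarcoma cell line without p53, was the parental line (p53-null, 3 libraries) and was compared with a line carrying a lentiviral, doxycycline-inducible p53 (p53-WT, 3 libraries). The labels give 16 h of induction for both, and whether the p53-null cells also received doxycycline is not stated in the sources used here. The study used the Saos-2 pair to mark genes that respond to wild-type p53. Both compounds were set against the same DMSO libraries, so their changes are not independent of each other. Nothing in the labels says that replicates came from separate cultures, so the p-values measure the spread between these libraries, which may be technical.

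Glutathione is a tripeptide of glutamate, cysteine and glycine and the main soluble thiol of the cell. SLC7A11 and its partner SLC3A2 form the exchanger that brings in cystine, and glutamate-cysteine ligase, made of the catalytic subunit GCLC and the modifier subunit GCLM, then carries out the step that limits the rate of synthesis. GSS adds glycine, GSR reduces oxidized glutathione with NADPH, the selenoproteins GPX1 and GPX4 use glutathione to reduce hydrogen peroxide and lipid peroxides, and GGCT acts on gamma-glutamyl amino acids in the breakdown of glutathione. SLC7A11, GCLC, GCLM and GSR are textbook targets of NRF2, the oxidative stress factor encoded by NFE2L2, SLC7A11 is also a target of ATF4, and p53 is known to lower SLC7A11. With UCI-1001 and UCI-1014, SLC7A11, GCLC and GCLM were higher than with DMSO. In the p53-WT libraries SLC7A11, GCLC and GSR were lower than in p53-null and GSS was higher.

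On GRCh38 (GENCODE release 44), SLC7A11 lies at chr4:138164097-138242349, GCLC at chr6:53497341-53616970, GCLM at chr1:93885199-93909456, GSS at chr20:34928432-34956027, GPX1 at chr3:49357174-49358605, GPX4 at chr19:1103982-1106791 and GGCT at chr7:30496621-30504841. GPX4 is on the plus strand and the others are on the minus strand. RefSeq promoter windows (GRCh38.p14, 250 bases before to 50 after a start) were on hand for 4 of the 8 genes. GCLC, GCLM, GPX1 and GPX4 had one, and SLC7A11, GSS, GSR and GGCT were the other 4. The 250 bases before the start of the subunits of glutamate-cysteine ligase are shown because these genes rose together with both compounds. They are written 5′ to 3′ on the minus strand, with the core of the antioxidant response element (TGACNNNGC, searched on both strands) in capitals. The RefSeq start of GCLC lies inside the gene as GENCODE draws it, which also has a start further upstream.
GCLM, chr1:93909431-93909680: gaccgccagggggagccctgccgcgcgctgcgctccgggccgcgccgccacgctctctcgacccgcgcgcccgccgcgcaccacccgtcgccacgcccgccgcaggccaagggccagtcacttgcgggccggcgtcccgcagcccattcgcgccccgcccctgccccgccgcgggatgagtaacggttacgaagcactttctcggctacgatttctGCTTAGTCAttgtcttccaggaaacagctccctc
GCLC, chr6:53545102-53545351: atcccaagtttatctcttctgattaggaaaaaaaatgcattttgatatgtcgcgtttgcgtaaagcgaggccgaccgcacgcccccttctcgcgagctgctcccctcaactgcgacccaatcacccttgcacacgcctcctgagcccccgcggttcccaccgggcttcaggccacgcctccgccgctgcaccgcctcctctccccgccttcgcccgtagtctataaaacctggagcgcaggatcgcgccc

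The core stands once before GCLM, on the strand opposite to the gene, from 34 to 26 bases before the start, and it is not in the windows of GCLC, GPX1 or GPX4. It was found in 13.3% of all 35116 windows. In the 8 other lists used below it was in 21 of the 73 genes with a window, among them SLC3A2, from 37 to 29 bases before its start. A gene can have more than 1 window, so this count of genes and the share of windows are not in the same unit. The C/EBP-ATF element (TGATGNAAT), found in 0.991% of the windows, was in none of these 4 genes. A p53 half-site, found in 6.63%, matched GCLC from 30 to 39 bases after its start and GPX1 from 177 to 168 bases before it. A match is a description of letters and shows no binding.

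The libraries held between 17762027 and 24629558 counts. CDKN1A, the classical p53 target, was at 56.9 to 79.2 CPM (counts relative to the library size, scaled with edgeR's TMM factors within each line) in the p53-null libraries and at 7921 to 9039 CPM in p53-WT. MDM2, another p53 target, rose with p53-WT (log2 fold change 4.44 ± 0.20, SE) but was at 0.00 ± 0.04 with UCI-1001 and 0.05 ± 0.04 with UCI-1014, while CDKN1A rose with both compounds (1.65 ± 0.10 and 3.54 ± 0.08). The cell type labels were largely not borne out by the markers, with SPP1, EPCAM and CDH1 as exceptions. In the libraries labelled Saos-2 the osteoblast genes SP7 (0 counts in each of the 6 libraries), IBSP (at most 2 counts) and ALPL (at most 0.532 CPM) were at or near 0, while SPP1 was at 13.5 to 44.7 CPM and RUNX2 at 4.16 to 12.1 CPM. COL1A1, the collagen of bone and connective tissue, was at 0.397 to 1.84 CPM there, against 47.7 to 53.04 CPM in the libraries labelled TOV-112D, where RUNX2 was at 4.71 to 9.21 CPM. KRT8 and KRT18, the keratins of simple epithelia, were at 194 to 568 and 402 to 559 CPM in the libraries labelled Saos-2. In the libraries labelled TOV-112D KRT18 had no count, KRT8 was at most 0.512 CPM and SPP1 at most 0.657 CPM. PAX8 was at most 0.052 CPM (3.27 to 7.58 CPM in the libraries labelled Saos-2). CDH1 was at 0.819 to 1.79 CPM and EPCAM at 1.80 to 3.09 CPM. In the libraries labelled Saos-2 CDH1 was at most 0.263 CPM and EPCAM at most 0.1 CPM. The names TOV-112D and Saos-2 are used here as the labels give them. Replicate 1 of both p53-null and p53-WT stood apart from the other 2 replicates of its group. The chi-square between libraries of a group, divided by its degrees of freedom, was 23.0 to 38.4 for pairs with replicate 1 and 3.09 to 3.79 for replicates 2 and 3, so values without both are given beside the p53-WT results of the members. Among the other 43 genes named by rule, leaving out both changed the p53-WT call of NFE2L2 and kept that of the other 42. The 3 leukocyte markers summed to 37.4 to 38.4 CPM with DMSO, 40.0 to 41.1 with UCI-1001 and 57.8 to 64.2 with UCI-1014, nearly all of it from CD68, with CD3E at 0 counts in all 12 libraries, and its part in the results was not tested.

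A gene was called at an edgeR adjusted p under 0.05 (quasi-likelihood test, Benjamini-Hochberg adjustment over all genes tested). The members were chosen with earlier results of these data known, so the counts of members called are descriptions. With UCI-1001, 3 of the 8 genes were called higher and 1 lower, where 9.39% of the 14177 genes tested were called higher and 6.36% lower. With UCI-1014, 4 were higher and 3 lower, against 23.7% and 23.4% of all genes. UCI-1014, at a dose that is not known, set directly against UCI-1001 gave the same counts of 4 and 3, against 17.1% and 13.9%. With p53-WT, 7 of the 8 genes could be tested, and 1 was higher and 3 lower where 33.5% and 33.0% of 14275 genes were, so the share of members called there is close to that of all genes. The median log2 fold change of the members was 0.03 with UCI-1001, 0.13 with UCI-1014 and -0.34 with p53-WT, beside 0.00, -0.02 and -0.01 over all genes tested. Scaling by library size alone moved the median of all genes to -0.15 with UCI-1014, -0.13 for UCI-1014 against UCI-1001 and -0.16 with p53-WT, and it turned the split of UCI-1014 calls from 3365 higher and 3312 lower into 2369 and 5508, and that of UCI-1014 against UCI-1001 from 2430 and 1976 into 1549 and 4521. With UCI-1001 the split went from 1331 higher and 901 lower to 1171 and 1151. With p53-WT it went from 4785 and 4704 to 4013 and 5588. No called member changed direction under this scaling. The 2232 calls with UCI-1001 fell to 952 without DMSO replicate 1, to 1020 without DMSO replicate 2 and to 1188 without UCI-1001 replicate 2. Fewer cells and less RNA per cell cannot be told apart in these bulk libraries.

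**Figure D1:**
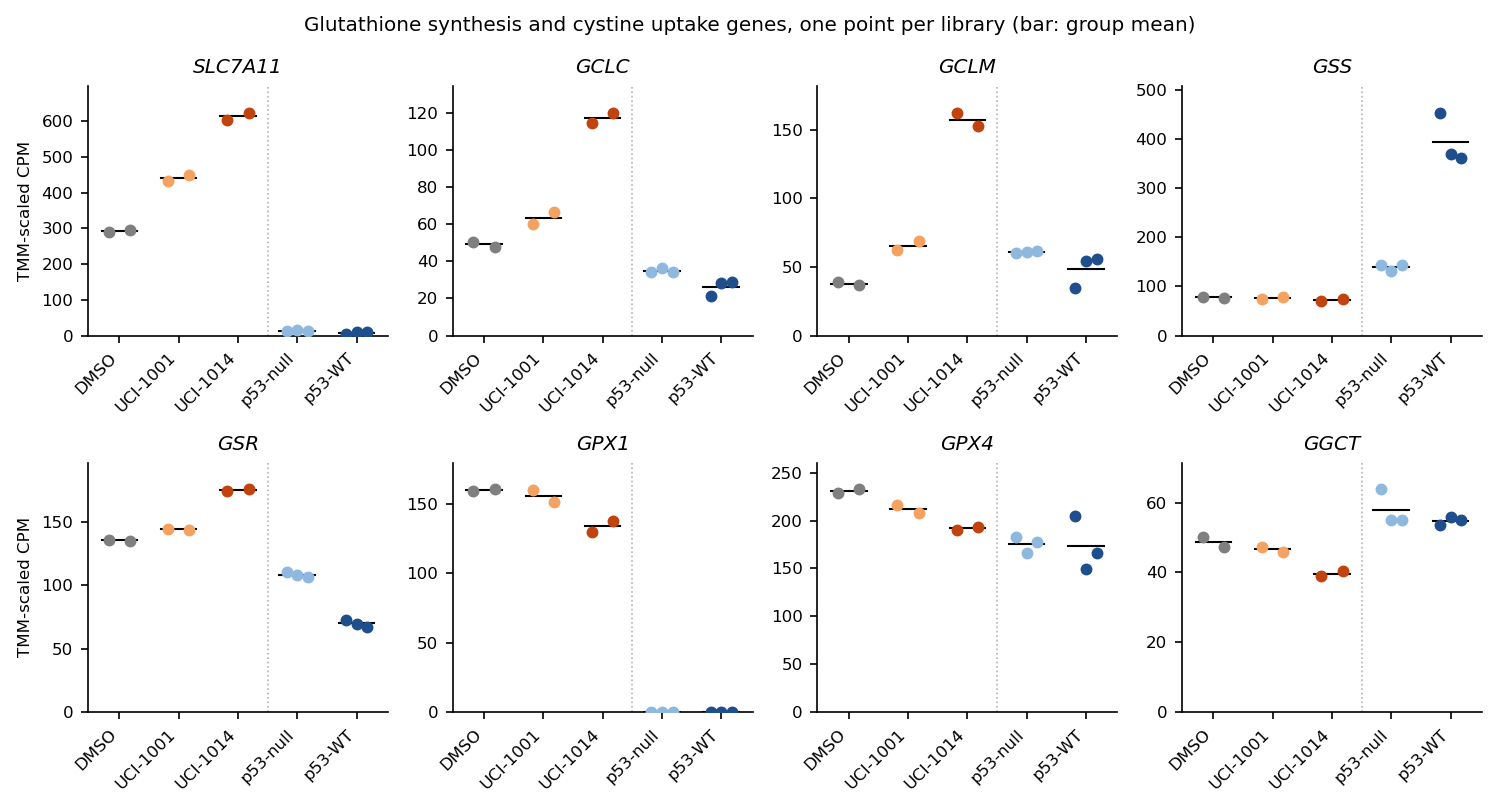
Level of each of the 8 genes in TMM-scaled CPM (linear axis from 0) in every library of the 5 groups, with the group mean as a bar; the dotted line parts TOV-112D from Saos-2 libraries, which were scaled separately. SLC7A11, GCLC and GCLM step up from DMSO to UCI-1001 to UCI-1014 without overlap, GSS is highest in the p53-WT libraries, and GPX1 is at 0.249 CPM or less in the libraries labelled Saos-2.

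SLC7A11, the transport subunit of the cystine exchanger, was higher with both compounds and lower with p53-WT. It was at 289 and 297 CPM in the DMSO libraries, 433 and 450 with UCI-1001, and 603 and 624 with UCI-1014. The 3 groups did not overlap. The log2 fold change was 0.59 ± 0.04 (SE) with UCI-1001 (1.51-fold, edgeR adjusted p = 8.28e-08) and 1.07 ± 0.04 with UCI-1014 (2.10-fold, edgeR adjusted p = 1.52e-11), and UCI-1014 stood above UCI-1001 by 0.48 ± 0.04 (edgeR adjusted p = 2.96e-07). In the p53-null libraries SLC7A11 was at 11.8, 15.4 and 11.9 CPM and in p53-WT at 5.27, 8.76 and 10.4 CPM. Each p53-WT library was below each p53-null library, and p53-WT replicate 1 was the lowest. The log2 fold change was -0.68 ± 0.22 (edgeR adjusted p = 0.0186). It was -0.44 without p53-WT replicate 1 (edgeR adjusted p = 0.0345) and -0.50 without replicate 1 of both groups (edgeR adjusted p = 0.0078), and without p53-null replicate 2, the highest library, it was -0.53 and no longer called (edgeR adjusted p = 0.0778). In the fit of all 12 libraries together, which shares 1 estimate of the spread between lines whose biological coefficients of variation were 3.59% (TOV-112D) and 12.3% (Saos-2), the UCI-1001 value was 0.56 (edgeR adjusted p = 0.197) and the difference between the compounds 0.44 (edgeR adjusted p = 0.20), neither called.

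SLC3A2, the heavy chain that carries the exchanger and other amino acid transporters to the membrane, differed in the same directions, with the compounds by less. Whether it differed by less than SLC7A11 with p53-WT was not tested. It was at 218 and 209 CPM with DMSO, 233 and 236 with UCI-1001 and 301 and 308 with UCI-1014. The log2 fold change was 0.14 ± 0.04 and 0.51 ± 0.04 with the compounds and -0.47 ± 0.10 with p53-WT, each called. The UCI-1001 call was lost without any one of the DMSO or UCI-1001 libraries, where the value lay between 0.11 and 0.17. It was also lost with library size alone (0.12, edgeR adjusted p = 0.0546), the replicate block (0.14, 0.0542) and the length offset (0.17, 0.0987). In the fit of all 12 libraries it was lost as well (edgeR adjusted p = 0.768). Per transcript length, in the deposited TPM, SLC3A2 exceeded SLC7A11 by 3.76 to 4.02 times with DMSO, 2.94 to 3.01 times with UCI-1001 and 2.78 to 2.82 times with UCI-1014. In the libraries labelled Saos-2 the ratio was 69.8 to 87.5 in p53-null and 80.3 to 154 in p53-WT, since SLC7A11 was at only 1.91 ± 0.44 TPM (SD, n = 3) in p53-null against 49.4 ± 1.03 TPM (SD, n = 2) with DMSO. The p53-null and p53-WT ratios overlapped.

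Both subunits of glutamate-cysteine ligase rose with the compounds, the modifier subunit by more. GCLM was at 39.1 and 36.6 CPM with DMSO, 62.3 and 68.8 with UCI-1001 and 162 and 152 with UCI-1014. Its log2 fold change was 0.79 ± 0.07 with UCI-1001 (1.73-fold, edgeR adjusted p = 1.25e-06) and 2.05 ± 0.06 with UCI-1014 (4.15-fold, edgeR adjusted p = 2.81e-12), the widest change among the 8 genes in these comparisons. GCLC was at 50.6 and 47.6 CPM with DMSO, 60.3 and 66.4 with UCI-1001 and 114 and 120 with UCI-1014. The log2 fold changes were 0.37 ± 0.06 (1.29-fold, edgeR adjusted p = 9.33e-04) and 1.25 ± 0.06 (2.39-fold, edgeR adjusted p = 4.19e-10). The libraries of the 3 groups did not overlap for either subunit. UCI-1014 exceeded UCI-1001 by 1.26 ± 0.06 for GCLM and 0.89 ± 0.06 for GCLC, both called. In the fit of all 12 libraries the UCI-1001 value of GCLC was 0.34 and was not called (edgeR adjusted p = 0.298), while that of GCLM stayed called.

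With p53-WT the ligase subunits were lower, GCLC past the test and GCLM not. GCLC was at 34.0, 36.3 and 34.3 CPM in p53-null and at 21.3, 28.2 and 28.9 in p53-WT. The log2 fold change was -0.42 ± 0.13 (edgeR adjusted p = 0.015), -0.30 without replicate 1 of both groups (edgeR adjusted p = 0.00244) and -0.38 without p53-null replicate 2, where it was no longer called (edgeR adjusted p = 0.0624). GCLM was at 60.0, 61.1 and 61.4 CPM in p53-null and at 34.8, 54.0 and 55.9 in p53-WT, so p53-WT replicate 1 lay far under the other 2. All 3 p53-WT libraries were below the p53-null libraries, but the log2 fold change of -0.34 ± 0.16 missed the threshold (95% interval -0.69 to 0.02, edgeR adjusted p = 0.0863). It was -0.15 without replicate 1 of both groups and called there (edgeR adjusted p = 0.0437), -0.45 without p53-WT replicate 3 and called (edgeR adjusted p = 0.0415), -0.33 and called in the fit of all 12 libraries (edgeR adjusted p = 0.0494), -0.48 and called with library size alone (edgeR adjusted p = 0.0334), and -0.08 with an offset for transcript length (edgeR adjusted p = 0.586).

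Per transcript length, GCLM and GCLC were close to each other in TOV-112D and apart in the libraries labelled Saos-2. The GCLM to GCLC ratio in TPM was 0.757 and 0.782 with DMSO, 0.973 in both UCI-1001 libraries, and 1.28 and 1.02 with UCI-1014. The DMSO libraries were below all compound libraries. The ratio was 1.55 to 1.78 in p53-null and 2.08 to 2.32 in p53-WT, again without overlap. In p53-WT replicate 3, with a ratio of 2.08, only 80.3% of the GCLC count lay in transcripts found in the annotation. Its GCLC level leaves out the rest, so its ratio is too high and may overlap with p53-null. The ratios also count short transcripts without a defined coding sequence. For GCLM, ENST00000467772 (625 bases) held 15.5% to 26.7% of the TPM with DMSO, 30.9% to 45.8% in p53-null and 37.8% to 58.3% in p53-WT. For GCLC, ENST00000514933 held at most 9.38%, 18.8% and 20.3% in these groups. The ratio of coding transcripts alone was not computed.

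**Figure D2:**
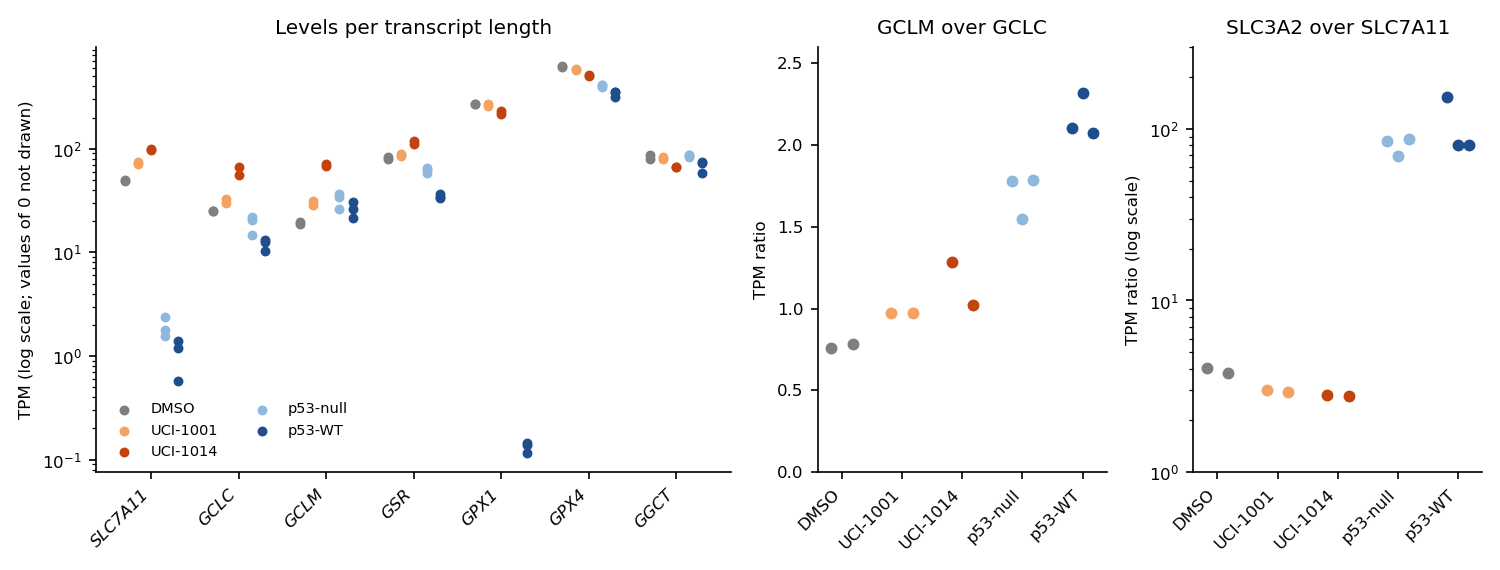
Deposited TPM of 7 of the genes by group on a log axis (left; GSS is left out and values of 0 are not drawn), and the TPM ratios of GCLM over GCLC (middle, linear axis from 0) and SLC3A2 over SLC7A11 (right, log axis), 1 point per library. SLC7A11 lies near 50 TPM with DMSO and under 3 TPM in the libraries labelled Saos-2, and the GCLM over GCLC ratio goes from 0.757 with DMSO to 2.32 with p53-WT.

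GSS, the enzyme of the last step of glutathione synthesis, rose with p53-WT and was not called with either compound. It was at 78.7 and 76.1 CPM with DMSO, 73.5 and 78.1 with UCI-1001 and 69.2 and 74.7 with UCI-1014. The log2 fold changes with the compounds were -0.03 (95% interval -0.15 to 0.09) and -0.10 (95% interval -0.22 to 0.02), neither called, and the compounds differed by -0.07 (95% interval -0.19 to 0.05). Scaled by library size alone, the UCI-1014 value was -0.24 and called (edgeR adjusted p = 0.00231), and the difference between the compounds was -0.19 and called (edgeR adjusted p = 0.0151), beside the shifts of the median of all genes given above. In p53-null GSS was at 143, 132 and 144 CPM and in p53-WT at 453, 369 and 360 CPM. The groups were far apart, with a log2 fold change of 1.50 ± 0.12 (2.82-fold, edgeR adjusted p = 7.45e-07), and 1.41 without replicate 1 of both groups. GSS has no usable TPM level here, because as little as 9.82% of its count lay in transcripts found in GENCODE release 44. That share was 29.2% to 32.5% in p53-null and 23.8% to 28.5% in p53-WT. The rise with p53-WT thus rests mostly on counts that could not be traced to an annotated transcript, and the length offset left GSS out.

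GSR (chr8:30678066-30727846, minus strand), which regenerates reduced glutathione, rose with UCI-1014 and fell with p53-WT. It was at 136 and 135 CPM with DMSO, 144 in both UCI-1001 libraries and 173.9 and 175.5 with UCI-1014. With UCI-1001 the log2 fold change of 0.09 ± 0.04 was not called (edgeR adjusted p = 0.152). With UCI-1014 it was 0.37 ± 0.04 (1.29-fold, edgeR adjusted p = 2.25e-06), and UCI-1014 exceeded UCI-1001 by 0.28 ± 0.04 (edgeR adjusted p = 7.15e-05). In the fit of all 12 libraries that difference was 0.25 and not called (edgeR adjusted p = 0.0909). The p53-null libraries were at 110, 108 and 106 CPM and the p53-WT libraries at 72.8, 69.4 and 67.3. These groups did not overlap, and the log2 fold change was -0.63 ± 0.10 (edgeR adjusted p = 1.50e-04), and -0.64 without replicate 1 of both.

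The peroxidases were lower with UCI-1014, and with DMSO they had the highest TPM of the 7 members with a usable level, GSS being left out. GPX4, the peroxidase of lipid hydroperoxides in membranes, was at 622 ± 3.31 TPM (SD, n = 2) with DMSO, followed by GPX1 at 270 ± 2.68 TPM, GGCT at 83.4 ± 4.19, GSR at 81.8 ± 3.13, SLC7A11 at 49.4 ± 1.03, GCLC at 24.9 ± 0.06 and GCLM at 19.2 ± 0.39. In that order only GGCT and GSR overlapped. In p53-null, without GSS and with GPX1 at 3 counts or less, the order was GPX4 (406 ± 11.9 TPM, SD, n = 3), GGCT (85.7 ± 2.24), GSR (61.9 ± 3.32), GCLM (32.2 ± 5.27), GCLC (19.0 ± 3.77) and SLC7A11, with no overlap between neighbours. In CPM, GPX4 went from 229 and 233 with DMSO to 217 and 208 with UCI-1001 and 190 and 193 with UCI-1014. The groups did not overlap. The log2 fold change with UCI-1014 was -0.27 ± 0.04 (edgeR adjusted p = 5.60e-05), and UCI-1014 was below UCI-1001 by 0.15 (log2 fold change -0.15 ± 0.04, edgeR adjusted p = 0.011). The UCI-1001 value of -0.12 ± 0.04 passed by little (edgeR adjusted p = 0.0476) and was not called by DESeq2 (adjusted p = 0.153), nor without DMSO replicate 1 (edgeR adjusted p = 0.177), DMSO replicate 2 (0.283) or UCI-1001 replicate 2 (0.274). The difference between the compounds was not called without UCI-1001 replicate 1 (0.148) or UCI-1014 replicate 1 (0.0735). In the fit of all 12 libraries GPX4 was called neither with UCI-1014 (-0.33, edgeR adjusted p = 0.0663) nor with UCI-1001 (0.73) nor between the compounds (0.457). With p53-WT, GPX4 was at 150 to 205 CPM against 167 to 183 in p53-null, with overlap (log2 fold change -0.02, 95% interval -0.29 to 0.26). Without replicate 1 of both groups it was -0.12 and not called (edgeR adjusted p = 0.119).

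GPX1, the peroxidase of the cytosol and mitochondria, was at 159 and 161 CPM with DMSO, 160 and 151 with UCI-1001 and 130 and 138 with UCI-1014. The UCI-1014 libraries were below the other 4, with a log2 fold change of -0.26 ± 0.05 (edgeR adjusted p = 3.11e-04) against DMSO and -0.22 ± 0.05 (edgeR adjusted p = 0.00216) against UCI-1001. Both calls were lost in the fit of all 12 libraries, at -0.32 (edgeR adjusted p = 0.112) and -0.25 (0.34). With UCI-1001 it was -0.04 (95% interval -0.13 to 0.06). In the libraries labelled Saos-2 GPX1 had 2, 0 and 3 counts in p53-null and 1, 5 and 1 in p53-WT, and it was filtered out before the test. The pseudogene rows GPX1P1 and GPX1P2 held at most 3 counts in any library.

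GGCT was at 50.1 and 47.3 CPM with DMSO, 47.3 and 45.9 with UCI-1001 and 38.9 and 40.3 with UCI-1014. The UCI-1014 libraries were below the others, with a log2 fold change of -0.30 ± 0.06 (edgeR adjusted p = 0.0013) against DMSO. Against UCI-1001 it was -0.23 ± 0.06 (edgeR adjusted p = 0.0113), a call lost with DESeq2 (adjusted p = 0.0683) and without UCI-1001 replicate 1 (edgeR adjusted p = 0.0929) or UCI-1014 replicate 1 (0.0752), and in the fit of all 12 libraries (0.142). With UCI-1001 it was -0.06 (95% interval -0.20 to 0.07) and with p53-WT -0.08 (95% interval -0.31 to 0.15). The last was 0.02 without replicate 1 of both groups (edgeR adjusted p = 0.821).

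**Figure D3:**
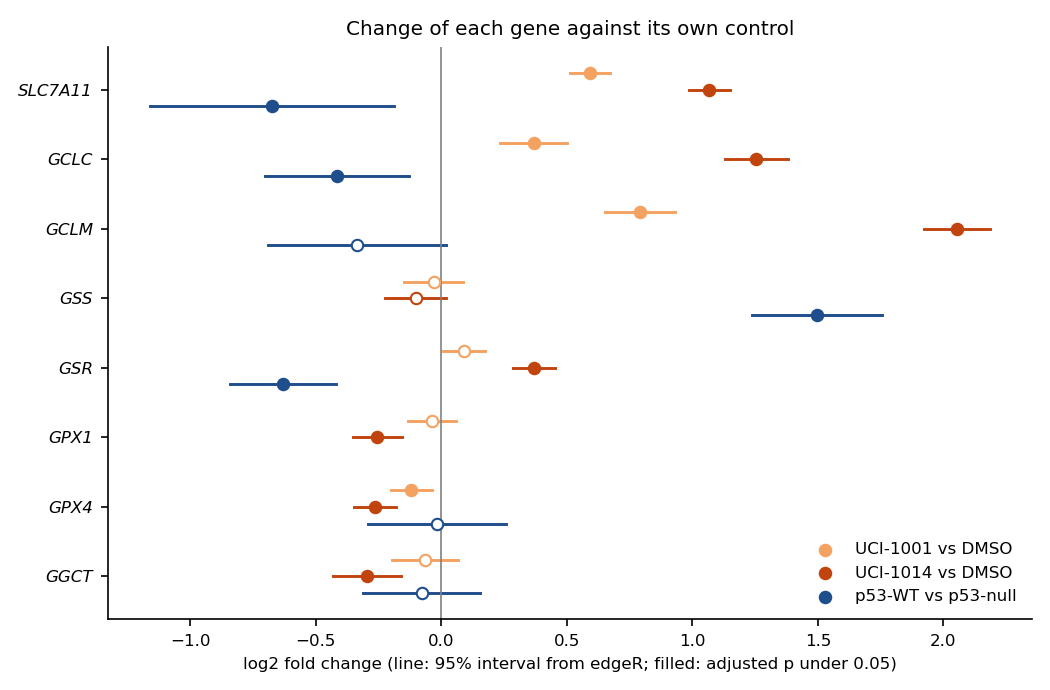
Log2 fold change of each gene against its own control, with edgeR's 95% interval as a line and filled points where the adjusted p was under 0.05. SLC7A11 and GCLC lie to the right of 0 with both compounds and to the left with p53-WT, GSS lies at 1.50 with p53-WT, and GPX1 has no p53-WT value.

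The difference between a compound's change in TOV-112D and the change with p53-WT in Saos-2 was tested in 1 fit of all 12 libraries. Because the members were chosen with earlier results of these data known, the p-values and counts here are no independent test of the pattern. Of the 7 genes measured in both lines, SLC7A11, GCLC, GCLM and GSR changed more upward with each compound than with p53-WT and GSS more downward, 4 and 1 for either compound. Over all 15794 genes, 24.5% were called in the upward and 25.1% in the downward direction for UCI-1001, and 25.9% and 27.1% for UCI-1014. For UCI-1001 the differences in log2 fold change were 1.23 ± 0.26 for SLC7A11 (edgeR adjusted p = 0.00136), 0.74 ± 0.17 for GCLC (0.00203), 1.09 ± 0.22 for GCLM (8.94e-04), 0.68 ± 0.10 for GSR (8.13e-05) and -1.56 ± 0.14 for GSS (6.90e-07). For UCI-1014 they were 1.67 ± 0.26 for SLC7A11 (edgeR adjusted p = 1.00e-04), 1.60 ± 0.17 for GCLC (2.19e-06), 2.32 ± 0.22 for GCLM (8.35e-07), 0.93 ± 0.10 for GSR (3.84e-06) and -1.67 ± 0.14 for GSS (3.26e-07). GPX4 and GGCT were not called for either compound, with -0.14 and -0.02 for UCI-1001 and -0.32 and -0.29 for UCI-1014. The UCI-1014 value of GPX4 was called without p53-WT replicate 2 (-0.42, edgeR adjusted p = 0.0205) and by limma voom (adjusted p = 0.0201), and was -0.10 without p53-WT replicate 1 (edgeR adjusted p = 0.41) and -0.12 without replicate 1 of both groups (0.173). That of GGCT was called without p53-null replicate 1 (-0.36, edgeR adjusted p = 0.00876), without replicate 1 of both groups (-0.29, 0.00641), by DESeq2 (adjusted p = 0.0464) and by limma voom (0.0015). Cell line, time and agent differ together in this test and cannot be told apart. Scaled by library size alone, the 3876 upward and 3968 downward calls for UCI-1001 became 4832 and 3270, with a median of 0.17 over all genes.

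The genes whose centred log2 CPM followed GCLM most closely over the 12 libraries, among 11577 genes at 1 CPM or more on average in each line, were FNIP1 (Pearson r = 0.998), FXR1 (0.996), NARS (0.995), ATP6V1C1 (0.992) and SGMS2 (0.992). For SLC7A11 they were PAPOLA (0.987), DENND4A (0.987), LIN28B (0.986), C5orf51 (0.986) and LIN54 (0.986). Among the genes listed for GCLM, FNIP1 also came nearest to it in size, at 0.76 and 1.90 with the compounds and -0.30 with p53-WT. Among the members, GCLM and GCLC had r = 0.982, SLC7A11 and GCLC 0.950, and GSS and GSR -0.988. The points share libraries and the steps between groups, so these are descriptions.

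Other genes of the pathway were taken from 8 lists (88 entries), given by how many were called. Over all genes tested, 9.39% were called higher and 6.36% lower with UCI-1001, and 23.7% and 23.4% with UCI-1014. With p53-WT the shares were 33.5% and 33.0%. Several of the counts below are close to these shares, and no list was tested as a set. Of 8 genes tested for the supply of cystine and cysteine, 4 were higher and 1 lower with UCI-1001 (median 0.07 beside 0.00 over all genes), and 5 were higher and 2 lower with UCI-1014 (median 0.35 beside -0.02). Of these 5, SLC1A5 was at 0.12 and, scaled by library size alone, at -0.01, and its call was lost without DMSO replicate 1 (edgeR adjusted p = 0.0745), DMSO replicate 2 (0.149) or UCI-1014 replicate 2 (0.0819). With p53-WT 1 of 9 was higher and 7 lower (median -0.96 beside -0.01). The lysosomal cystine exporter CTNS rose by 0.50 ± 0.07 and 1.06 ± 0.06 with the compounds and was at -1.01 ± 0.12 with p53-WT. The neutral amino acid transporter SLC1A4 had 0.44 ± 0.07, 1.08 ± 0.06 and -1.22 ± 0.14, and the glutamine transporter SLC1A5 fell by 1.97 with p53-WT. CTH, which makes cysteine from cystathionine, rose by 1.62 ± 0.23 with UCI-1014, from 1.44 and 2.27 CPM with DMSO to 5.91 and 5.47 CPM. Its UCI-1001 value of 0.85 ± 0.25 was called, but not by DESeq2 (adjusted p = 0.0998), and it went from 0.55 without DMSO replicate 1 (edgeR adjusted p = 0.28) to 1.21 without DMSO replicate 2. The call was also lost without UCI-1001 replicate 1 (0.0867) or replicate 2 (0.0846). MAT2A, the synthase of S-adenosylmethionine at the head of that route, was lower in all 3 comparisons (-0.78 ± 0.04, -0.81 ± 0.04 and -1.51 ± 0.11).

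Genes that break down or move glutathione gave 1 higher and 1 lower call of 13 with UCI-1001 and 2 and 2 with UCI-1014, with a median of 0.00 for both. The lower call with UCI-1001, of the exporter ABCC4, was not made by DESeq2 (adjusted p = 0.122) and was lost without DMSO replicate 1 (edgeR adjusted p = 0.0914), DMSO replicate 2 (0.204) or UCI-1001 replicate 2 (0.135). CHAC1, an enzyme that cleaves glutathione inside the cell, was at 2.11 and 2.22 CPM with DMSO, 24.5 and 33.7 with UCI-1001 and 93.6 and 72.4 with UCI-1014. That is a log2 fold change of 3.74 ± 0.22 and 5.25 ± 0.20, and CHAC1 also rose with p53-WT, by 3.02 ± 0.14. With p53-WT 7 of 13 were higher and 4 lower (median 0.73 beside -0.01). GGT1, which cleaves extracellular glutathione, went from 0.69, 1.00 and 0.40 CPM in p53-null to 23.3, 16.3 and 17.3 CPM in p53-WT (4.78 ± 0.26), and CHAC2 fell by 1.91.

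Among other peroxidases and glutaredoxins, GPX8 of the endoplasmic reticulum rose with the compounds (0.39 ± 0.07 and 0.89 ± 0.06) and fell with p53-WT, from between 64.8 and 86.5 CPM to between 11.7 and 12.05 CPM (log2 fold change -2.62 ± 0.14). In all, GPX8 was the 1 gene of 7 called with UCI-1001, 2 were higher and 2 lower with UCI-1014, and 2 of 8 higher and 4 lower with p53-WT, where DESeq2 called 1 and 1 with UCI-1014 and 2 and 3 with p53-WT. The glutaredoxin GLRX2 was the other higher call with UCI-1014, which was lost with DESeq2 (adjusted p = 0.131), with library size alone (0.04, edgeR adjusted p = 0.641) and without DMSO replicate 1 (0.0854), DMSO replicate 2 (0.182) or UCI-1014 replicate 1 (0.118). Of 18 transferases and glyoxalases, 0 were called with UCI-1001 by edgeR or by DESeq2, and 2 had an unadjusted edgeR p under 0.05, both upward. With UCI-1014, ESD, MGST1, GSTK1 and GSTP1 were lower, at -0.26 to -0.14, and these 4 were the calls of the list (median -0.07). Of all genes, 23.4% were called lower there. DESeq2 called ESD alone. The edgeR call of MGST1 was lost without DMSO replicate 1 (adjusted p = 0.081) or UCI-1014 replicate 2 (0.0823), that of GSTP1 without either DMSO library (0.133 and 0.0653) or UCI-1014 replicate 1 (0.107), and that of GSTK1 without any one of the libraries except DMSO replicate 1, where it fell to -0.12 without DMSO replicate 2 (0.347). With p53-WT 5 of 15 were higher and 1 lower (median 0.38), where 33.5% and 33.0% of all genes were. The higher calls, near the share of all genes, included the glyoxalase HAGH (2.03 ± 0.13) and the transferase GSTP1 (1.58 ± 0.15). The enzymes that supply NADPH, which GSR uses, gave 0 calls of 10 with UCI-1001 by edgeR or by DESeq2 (1 had an unadjusted edgeR p under 0.05), and 1 higher and 6 lower with UCI-1014 (median -0.16), where DESeq2 called 0 higher and 4 lower. ME1, the malic enzyme of the cytosol, was the higher call (0.91 ± 0.27), which was lost without DMSO replicate 2 (edgeR adjusted p = 0.0725) or UCI-1014 replicate 1 (0.0541). The lower call of PGLS (-0.21) was lost without DMSO replicate 1 (-0.17, edgeR adjusted p = 0.145) or UCI-1014 replicate 1 (-0.14, 0.15). With p53-WT 7 of 10 were called, all 7 higher (median 0.43). TKT of the pentose phosphate pathway was at -0.12 ± 0.04 with UCI-1014 and 1.50 ± 0.12 with p53-WT, and IDH2 of the mitochondrion at -0.20 ± 0.04 and 1.52 ± 0.14. The UCI-1014 call of IDH2 was lost with the length offset (-0.11, edgeR adjusted p = 0.125). That of TKT was lost without DMSO replicate 1 (edgeR adjusted p = 0.139), DMSO replicate 2 (0.0876) or UCI-1014 replicate 1 (-0.07, 0.179).

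Of 5 genes of selenoprotein synthesis, on which GPX1 and GPX4 depend, 1 was higher with UCI-1001, 3 were higher and 1 lower with UCI-1014 (median 0.52) and 1 was higher and 1 lower with p53-WT (median -0.20). SEPHS2, which makes the selenium donor, had 0.17 ± 0.05, 0.52 ± 0.05 and -0.66 ± 0.10. It was the 1 call with UCI-1001, which DESeq2 did not make (adjusted p = 0.117) and which was lost without either DMSO library (edgeR adjusted p = 0.144 and 0.205) or either UCI-1001 library (0.0748 and 0.132). EEFSEC, the elongation factor for selenocysteine, was the lower call with UCI-1014 (-0.22 ± 0.08), which was lost with DESeq2 (adjusted p = 0.258) and without any one of the 6 libraries (edgeR adjusted p from 0.0624 to 0.169). In the list on lipid peroxidation, 3 of 8 were higher and 1 lower with UCI-1001, 4 and 3 with UCI-1014 (medians 0.18 and 0.18), and 4 of 7 were higher and 2 lower with p53-WT (median 1.71). DESeq2 called 2 higher and 0 lower with UCI-1001. GCH1, which starts the synthesis of tetrahydrobiopterin, was among the higher edgeR calls there, and its call was lost with DESeq2 (adjusted p = 0.111) and without DMSO replicate 1 (edgeR adjusted p = 0.0967), DMSO replicate 2 (0.0936) or UCI-1001 replicate 2 (0.0783). SAT1, which acetylates polyamines, was higher in all 3 comparisons (0.64 ± 0.14, 1.91 ± 0.13 and 2.32 ± 0.11), the first not called without DMSO replicate 1 (0.55, edgeR adjusted p = 0.0856). ACSL4, which loads polyunsaturated fatty acids for membrane lipids, rose with UCI-1014 (0.68 ± 0.06) and fell with p53-WT (-0.71 ± 0.13). With UCI-1001 it was at 0.24 ± 0.06, a call lost without DMSO replicate 1 (edgeR adjusted p = 0.0967), DMSO replicate 2 (0.0935) or UCI-1001 replicate 2 (0.16, edgeR adjusted p = 0.133).

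Of 10 regulators, 7 were called with UCI-1001, all 7 higher (median 0.43), 8 were higher and 1 lower with UCI-1014 (median 1.15), and 2 higher and 3 lower with p53-WT (median -0.10). NFE2L2 was at 84.1 and 82.8 CPM with DMSO, 97.4 and 114 with UCI-1001 and 172 in both UCI-1014 libraries (0.34 ± 0.06 and 1.04 ± 0.06). The UCI-1001 value was 0.22 without UCI-1001 replicate 2, still called, and was not called in the fit of all 12 libraries (0.31, edgeR adjusted p = 0.202). With p53-WT, NFE2L2 missed the threshold at -0.24 ± 0.10, but it was called lower without replicate 1 of both groups (-0.15, edgeR adjusted p = 0.0288), in the fit of all 12 libraries (-0.24, 0.0213), with the replicate number as a block (-0.25, 0.0474) and with library size alone (-0.39, 0.00872). ATF4, the factor of the integrated stress response, had 0.44 ± 0.04 and 1.17 ± 0.04 with the compounds and -0.46 ± 0.11 with p53-WT. MAFF, a small partner of NRF2, went from 5.41 and 4.55 CPM with DMSO to 28.9 and 35.8 with UCI-1001 and 137 in both UCI-1014 libraries (2.69 ± 0.12 and 4.77 ± 0.11), and was at -0.83 ± 0.11 with p53-WT. The stress factors ATF3 and DDIT3 rose in all 3 comparisons, ATF3 by 4.05 ± 0.24, 5.72 ± 0.20 and 1.74 ± 0.13, and DDIT3 by 3.42 ± 0.15, 4.78 ± 0.14 and 0.78 ± 0.14.

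**Figure D4:**
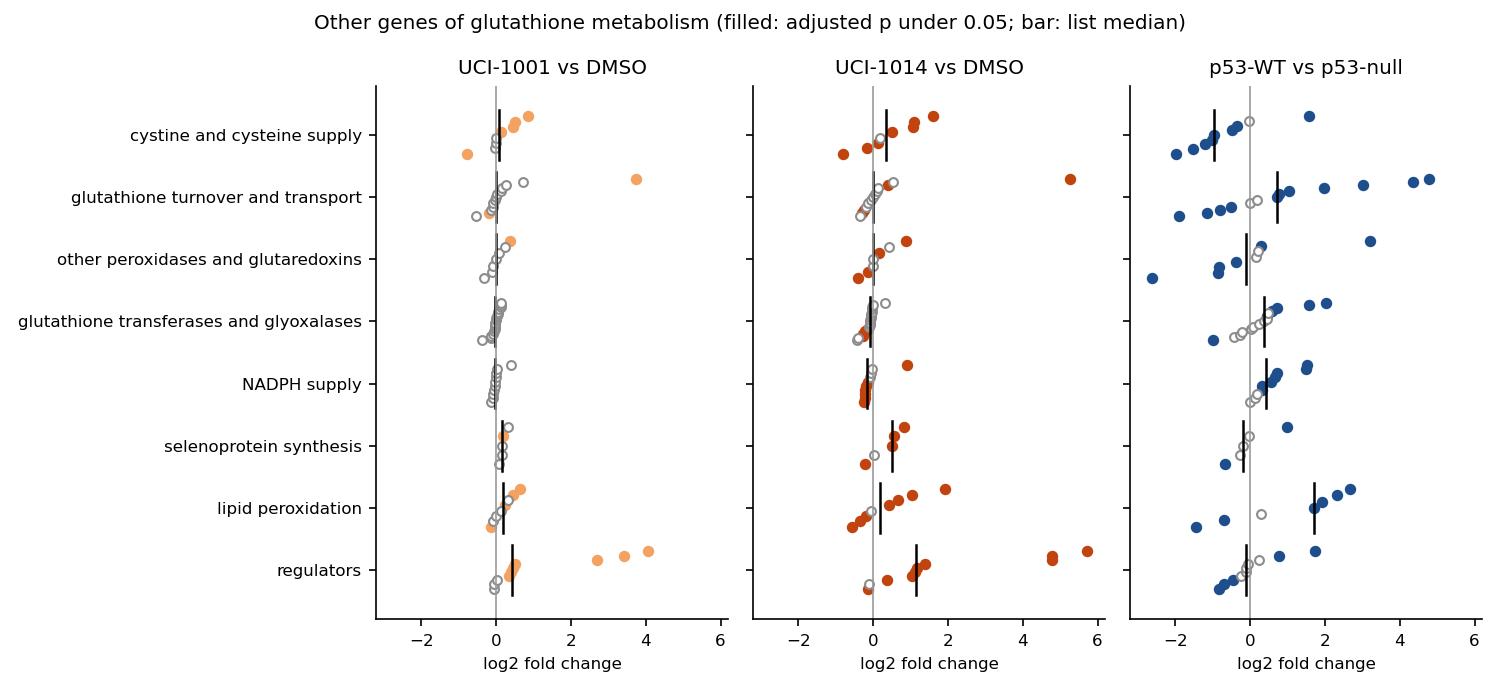
Log2 fold change of the genes of the 8 other lists with UCI-1001, UCI-1014 and p53-WT, 1 point per gene, filled where the edgeR adjusted p was under 0.05, with the list median as a bar. NADPH supply lies at or below 0 with UCI-1014 for 9 of 10 genes and above 0 with p53-WT, and the regulators reach 5.72 (ATF3, UCI-1014).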

How the data were processed

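RNA-seq was analysed in 12 libraries, grouped by GEO's labels. Per the submitters' processing notes, the authors quantified reads against GRCh38 with kallisto 0.48.0 and tested genes with DESeq2 1.38.3. The deposited gene table holds whole-number counts per Ensembl gene, summed from transcripts and not normalized. The authors also deposited, per library, estimated counts, TPM and effective lengths of 187626 transcripts, which carry no uncertainty. Of these transcripts, 88.4% were found in GENCODE release 44. Each gene column agreed within 1 count with the estimated counts deposited for its own library for at least 89.88% of genes above 10 counts, and with any other library for at most 3.11%.

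Rows sharing a symbol were summed (36486 rows, the 29 date-like symbols kept by identifier). Counts were tested with edgeR 4.0.16 in R 4.3.3 (TMM factors, filterByExpr, glmQLFit and glmQLFTest, Benjamini-Hochberg adjustment, called at an adjusted p under 0.05). The 6 TOV-112D libraries and the 6 Saos-2 libraries were each fitted by themselves, and differences between responses in a fit of all 12. Fold changes carry edgeR's standard error (the log2 fold change over the square root of F) or 95% interval. CPM values are TMM-scaled within a line. TPM values, as deposited, compare genes and lines. At these depths 3 counts correspond to about 0.15 CPM. Alternatives were library-size scaling, DESeq2 size factors, DESeq2 1.42.0, no filter, separate identifiers, a length offset (21296 genes), each library left out, a replicate block, a joint fit and limma 3.58.1 (voom with quality weights). The fits were tested on simulated counts.

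Named were the 8 members, SLC3A2, CHAC1, NFE2L2, ATF4, CDKN1A and MDM2, up to 3 called genes per list and comparison with the largest change and a mean of at least 1 CPM in that line, and for SLC7A11 and GCLM the 5 genes with the highest correlation (log2 CPM, prior count 2, centred on each line's control). AHCY, SLC25A39, GGT6, GLRX5, PGD, NADK, PSTK, SEPSECS, LPCAT3 and AIFM2 also met the rule and are counted in their lists without values of their own. One further gene is not reported here. The members and lists were chosen with earlier results of these data known. Promoters are RefSeq windows on GRCh38.p14.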

Additional observations from a re-analysis of the deposited data

How the results depend on the processing

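Of 746 alternative values of the members, 706 stayed on their side of the threshold, 26 lost the call, 14 gained it and 0 changed direction with a call. In 17 of the 706 the sign of a value that was not called differed from that in the results above, for GSS with UCI-1001, for GPX4 and GGCT with p53-WT and for both in the UCI-1001 test of a difference from p53-WT. Values named beside the results above are not repeated. The sign of SLC1A5 with UCI-1014 (called at 0.12) turned to -0.01 with library size alone, which shifted the median of all genes by about as much. That scaling also moved calls that held by over 1.5 times, with UCI-1014 to 0.23 for GSR, -0.39 for GPX1 and -0.40 for GPX4, and ESD, MGST1, GSTK1, GSTP1, IDH2, PGLS, TKT and EEFSEC to between -0.40 and -0.26. DESeq2 called 1284 genes with UCI-1001 and 2891 between the compounds. In one fit of all 12 libraries the UCI-1001 calls of ATF4, SLC1A4, CTH, GPX8, SEPHS2, ACSL4, GCH1 and ABCC4 were lost. The UCI-1014 calls lost in it included those of SLC1A5, MGST1, GSTK1, GSTP1, IDH2, PGLS, TKT, EEFSEC, CHAC2 and GLRX2. That fit called 308, 3421 and 937 genes (UCI-1001, UCI-1014, and the compounds against each other), and 1, 5 and 2 members. The length offset, which leaves out GCLC, GSS, GPX1 and GPX4, called 673, 3838 and 1909 genes and 2, 4 and 3 members in those comparisons, 2 members with p53-WT and 3 in each test of a difference from p53-WT. It put GSR between the compounds at 0.43, CTNS with p53-WT at -0.66 and GCLM for UCI-1001 against p53-WT at 0.70, each called. The same genes without the offset gave 2, 4, 4, 2, 3 and 3 members, an alternative chosen after seeing the data. Leaving out each library, or replicate 1 of both Saos-2 groups together, gave 3 to 4 members and 952 to 2538 genes with UCI-1001, 7 in each case and 5060 to 6635 with UCI-1014, 5 to 7 and 3011 to 3804 between the compounds, and 2 to 5 and 8599 to 10681 with p53-WT. In the tests of a difference it gave 5 in each case and 6610 to 9334 for UCI-1001 and 5 to 6 and 7179 to 9601 for UCI-1014. The highest counts of genes with p53-WT and in both tests of a difference were those without both libraries. The 2 members with p53-WT were found without p53-null replicate 2. Where it left 1 library in a group, that library was assumed to vary like the others.

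Same-numbered replicates were not treated as pairs in the main fits, and the labels do not say whether they share a batch. The correlations of their deviations were 0.141, 0.093 and 0.074 in Saos-2. They were 0.064 and -0.030 for DMSO against the compounds and -0.164 for UCI-1001 against UCI-1014. With the replicate block GCLM with p53-WT was called (-0.36, edgeR adjusted p = 0.0452), GPX4 with UCI-1001 was not (0.088), and GPX4 was called for UCI-1014 against p53-WT (-0.31, edgeR adjusted p = 0.034). Crossing the numbers of UCI-1014 against UCI-1001 gave 4979 calls, where the main fit gave 4406. GPX1 was too low for the main test in the Saos-2 libraries, at 5 counts or less.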

Other observations

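The transcripts that carry the members were read from the deposited TPM, as each transcript's share of its gene. For GGCT, a transcript annotated as subject to nonsense-mediated decay (ENST00000440082) held 19.9% to 21.4% of the TPM with DMSO, 19.6% to 27.0% with UCI-1001 and 12.6% to 17.6% with UCI-1014. It held 19.4% to 21.1% in p53-null and 9.26% to 13.4% in p53-WT, and neither the UCI-1014 nor the p53-WT libraries overlapped with their control. For GSR, a transcript of the same class (ENST00000643653) held at most 0.5% with DMSO but 11.0% to 29.2% in p53-null and 11.9% to 21.3% in p53-WT. Another of this class (ENST00000523295) held 0.0% to 2.17% with DMSO, 0.0% to 0.699% with UCI-1001 and 9.09% to 12.2% with UCI-1014. A coding transcript of GSR (ENST00000546342) held 16.0% to 16.5% with DMSO, 8.85% to 17.3% with UCI-1001 and 6.39% to 8.11% with UCI-1014, so for both transcripts the UCI-1014 libraries did not overlap with DMSO. The coding transcript of GCLC that led in TOV-112D (ENST00000650454) held 70.7% to 74.9% with DMSO, 80.9% to 81.0% with UCI-1001 and 63.4% to 75.0% with UCI-1014, against 27.6% to 38.6% in p53-null and 19.0% to 32.8% in p53-WT, where another coding transcript (ENST00000643939) held 34.7% to 44.9%. The longer coding transcript of GCLM (ENST00000370238) held 38.03% to 42.9% with DMSO, 43.6% to 45.4% with UCI-1001 and 48.3% to 50.8% with UCI-1014. SLC7A11 was carried by 1 transcript (ENST00000280612) at 94.2% or more in each library. No test was run on these shares, and the uncertainty of kallisto's estimates is not in the files used here. The transcripts were picked from those that reached 10% of their gene in a library, without a count of how many stood apart. Others overlapped, such as ENST00000642538 of GSS, at 18.1% to 20.8% with DMSO and 6.29% to 23.8% with UCI-1014.

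Levels in TPM and in CPM did not order the p53-WT pair alike for 3 members. GGCT was at 83.1 to 87.0 TPM in p53-null and at 57.9 to 74.6 TPM in p53-WT, without overlap, where its CPM overlapped. GPX4 was at 393 to 416 TPM and 318 to 353 TPM, also without overlap. For GCLM it was the other way, with the groups apart in CPM and overlapping in TPM, at 26.3 to 36.4 in p53-null and 21.6 to 30.3 in p53-WT. TPM is not scaled with TMM factors. The reason for the difference was not tested.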
